A study of Mus musculus with 8 samples.

Results

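Complement is the cascade of plasma and cell-surface proteins that marks microbes and damaged cells for uptake or lysis, and its genes were followed here in mouse liver after rilpivirine. The rule named 32 complement genes and took for each the probe set annotated with that symbol alone, or the brightest where there were several. A row was found for 29 of the 32 among 22180 genes of the arrays, and all 29 passed the filter on low values. Masp2 shares its only row with another gene, no row carries C3 or Cfd under the rule, and these 3 genes were not analysed here. The 29 are 3 C1q chains, which macrophages make, 17 components mainly made by hepatocytes and 9 others made mainly outside hepatocytes. These 9 are called members of other cells. They include Fcna, Cfp, C3ar1 and C5ar1, which are genes of macrophages or other myeloid cells, so C1q does not stand for all macrophage-made members.

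The 8 samples are liver RNA of wild-type C57BL/6 mice, 4 from a group that received rilpivirine by mouth every day and 4 from a control group. Rilpivirine is a non-nucleoside inhibitor of the HIV reverse transcriptase used in antiretroviral therapy. Both groups carry the label non-alcoholic fatty liver disease, and the dose is given as equivalent to the human one, without a figure. The labels describe a feeding period with normal or high-fat chow but do not say which sample had which, and neither the age of the animals nor what the controls received by mouth is given in the sources used here. The comparison addresses how rilpivirine alters gene expression in fatty liver. Nothing in the labels ties every sample to an animal of its own, and the p-values therefore describe only how far these samples scatter, which could be technical scatter.

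The classical pathway starts when C1q, a bundle of A, B and C chains, binds antibody or another target and switches on the proteases C1r and C1s, which cleave C4 and C2. The lectin pathway reaches the same step through collectins and ficolins with their MASP proteases, and the alternative pathway runs through factors B and D and is held together by properdin. All of them converge on cleavage of C3 and then of C5, after which C6, C7, C8 and C9 assemble into the membrane attack complex, a pore. Hepatocytes secrete most of these plasma proteins, and production of several rises in the acute phase response, whereas C1q in liver comes chiefly from macrophages, among them the resident Kupffer cells.

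The promoters of the genes on which the results turn are shown because the C1q chains are read in macrophages and the terminal components in hepatocytes. RefSeq's promoter table (GRCm38.p6) held 21 of the 29 members. It holds no entry for C1qa or Serping1. The 250 bases before the gene start were searched on both strands for GAGGAA (a core of the site of PU.1, a macrophage transcription factor), TTCNNNGAA (STAT), TTGCNNAA (C/EBP) and GTTAAT (an arm of the site of HNF1, a hepatocyte factor). Each line below gives a gene, its position and its sequence from 5′ to 3′ along the gene, with every match to any of the 4 motifs in capitals.
C1qb, chr4:136886201-136886450, - strand: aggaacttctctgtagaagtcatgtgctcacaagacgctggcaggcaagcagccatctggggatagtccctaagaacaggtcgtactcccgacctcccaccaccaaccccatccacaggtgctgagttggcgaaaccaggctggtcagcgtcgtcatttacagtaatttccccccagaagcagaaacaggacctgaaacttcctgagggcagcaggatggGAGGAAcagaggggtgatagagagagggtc
C1qc, chr4:136892915-136893164, - strand: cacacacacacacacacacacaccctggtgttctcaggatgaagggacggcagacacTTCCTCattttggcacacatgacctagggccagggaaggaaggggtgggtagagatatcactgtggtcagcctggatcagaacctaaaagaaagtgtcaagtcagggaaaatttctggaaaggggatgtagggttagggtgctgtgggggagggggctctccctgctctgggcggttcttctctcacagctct
Hc, chr2:35061413-35061662, - strand: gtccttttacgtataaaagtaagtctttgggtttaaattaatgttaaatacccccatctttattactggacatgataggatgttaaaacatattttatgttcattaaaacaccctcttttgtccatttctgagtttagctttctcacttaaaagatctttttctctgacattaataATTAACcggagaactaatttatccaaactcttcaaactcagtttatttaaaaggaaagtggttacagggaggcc
C8b, chr4:104766067-104766316, + strand: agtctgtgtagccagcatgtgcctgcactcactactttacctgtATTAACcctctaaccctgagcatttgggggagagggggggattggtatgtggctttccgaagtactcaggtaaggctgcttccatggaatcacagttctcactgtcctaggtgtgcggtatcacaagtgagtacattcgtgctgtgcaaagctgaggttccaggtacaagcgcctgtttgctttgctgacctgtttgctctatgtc
C8a, chr4:104876399-104876648, - strand: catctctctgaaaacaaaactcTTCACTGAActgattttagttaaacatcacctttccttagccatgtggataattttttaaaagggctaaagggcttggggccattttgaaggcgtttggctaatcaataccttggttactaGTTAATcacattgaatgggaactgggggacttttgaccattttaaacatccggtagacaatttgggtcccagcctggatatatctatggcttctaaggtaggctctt
C9, chr15:6445096-6445345, + strand: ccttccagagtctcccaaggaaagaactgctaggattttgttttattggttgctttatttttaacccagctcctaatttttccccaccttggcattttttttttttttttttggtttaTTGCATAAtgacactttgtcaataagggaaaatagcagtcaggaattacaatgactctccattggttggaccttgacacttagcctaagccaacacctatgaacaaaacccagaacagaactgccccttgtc
Both C1qb and C1qc hold a GAGGAA match, 30 and 193 bases before the start, and 23.3% of all 32851 promoters searched hold one. The GTTAAT arm is in C8a, C8b and Hc, and in 5 of the 11 hepatocyte-made members with an entry, against 6.43% of all promoters. It is also in C7 and Cfp, which other cells make, so that 7 of the 21 members hold it. GAGGAA is in 4 of the 21, the other two being Fcna, with 3 matches, and Cd59a. TTCNNNGAA is in 3 of the 21, C8a, Colec11 and C7, and TTGCNNAA in 2, C9 and C1s1. Of all promoters 7.02% and 9.56% hold them. C5ar1 has an entry, not printed here, and holds a match to none of the 4 motifs. The matches are letters in a window and were not measured as binding sites.

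Values are log2 expression as deposited, and differences are rilpivirine minus control from a limma fit over 16635 genes. The array medians lay between 3.33 and 3.45 log2. Rilpivirine replicate 2 stood apart, with a mean correlation with the other arrays of 0.965 against 0.976 to 0.981 for the remaining 7, and the counts over all members are also given without it. The hepatocyte marker Alb, which encodes albumin, measured 13.30 log2 with rilpivirine and 13.25 in controls, and the Kupffer cell marker Clec4f 7.82 and 7.95. Limma called 0 genes at a Benjamini-Hochberg adjusted p of 0.05, in this fit and in each of the 16 alternatives, with 867 genes (5.21%) at an unadjusted p under 0.05 and 700 without rilpivirine replicate 2. No member therefore passed the test over all genes. The adjusted p of the members ran from 0.777 to 0.992.

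Complement transcripts lay mostly lower in the rilpivirine group. Of the 29 members 25 had a difference below 0 and 4 above, where 56.9% of all genes lay below 0. The median difference of the members was -0.24 log2, against -0.03 over all genes tested. The unadjusted p was under 0.05 in 8 members (27.6%), and each of them was lower and 0 were higher; of all genes 3.21% were lower at that threshold. The 8 were the C1q chains C1qa and C1qb, the terminal components Hc, C8a, C8b and C9, the inhibitor Serping1 and the receptor C5ar1. Without rilpivirine replicate 2, again 25 members lay below 0 and 4 above, against 53.2% of all genes below 0, and the median of the members was -0.17 log2. The same 8 members were then lower and 0 higher at that threshold, against 2.48% of all genes. The members are brighter than most genes, with a median level of 8.43 log2 against 4.67. Among the 11090 genes at or above 3.91 log2, the 50th percentile of the 22180 genes, 7 of 27 members tested were lower at that threshold, against 3.71% of those genes. The median difference of those genes was -0.06 log2, further from 0 than that of all genes tested. The cut still lies far below the median level of the members, so levels were not matched. In bulk tissue, fewer cells of a type and less RNA per cell cannot be told apart.

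**Figure D1:**
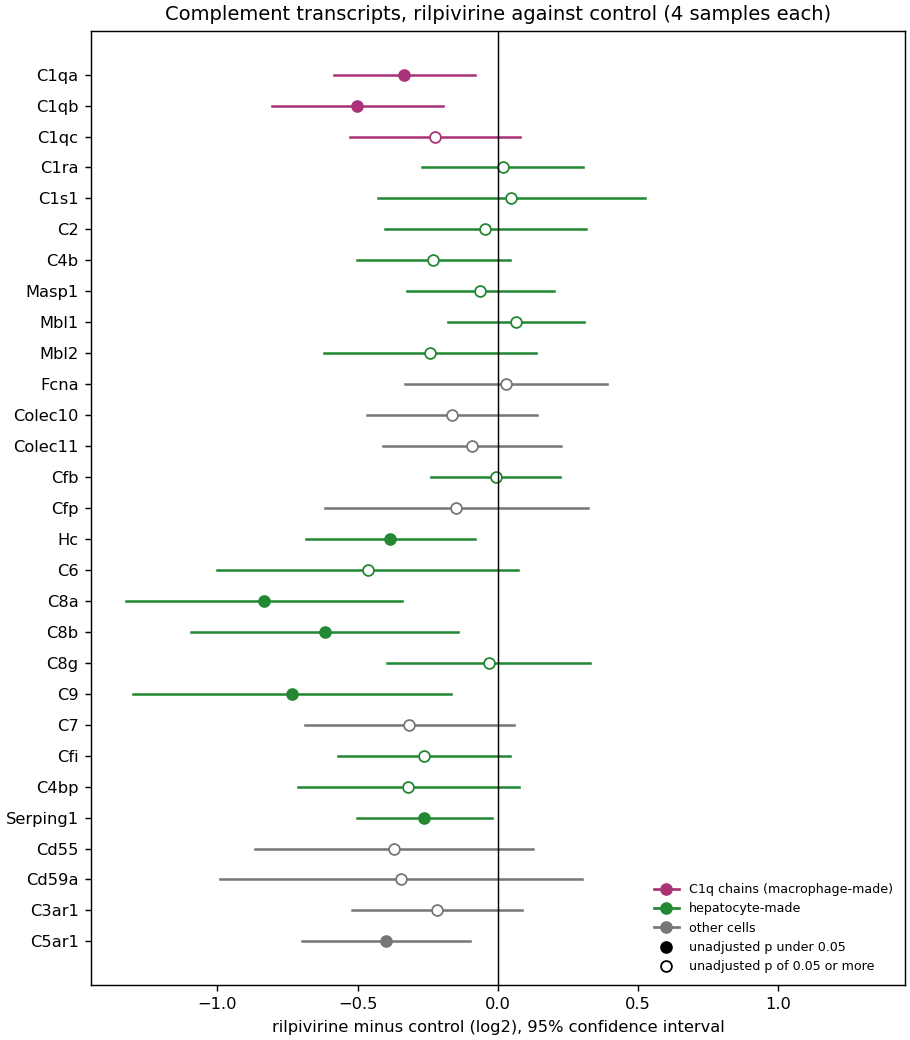
Difference between rilpivirine and control in log2 for each of the 29 complement genes (points) with 95% confidence intervals of the limma fit (lines). Colours mark C1q chains, hepatocyte-made members and members of other cells, the last including macrophage and other myeloid genes. Filled points have an unadjusted p under 0.05. All 8 filled points lie left of 0, from -0.83 for C8a to -0.26 for Serping1, and no adjusted p was under 0.777.

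The C1q chains were lower in the rilpivirine livers, by 0.22 to 0.50 log2. C1qb measured 8.47, 8.22, 8.41 and 8.35 log2 in rilpivirine replicates 1 to 4 and 9.13, 8.55, 8.94 and 8.84 in control replicates 1 to 4. All 4 rilpivirine values lay under the lowest control value, that of control replicate 2. The difference was -0.50 ± 0.14 log2 (SE, n = 4 per group), a 1.41-fold lower level, with an unadjusted p of 0.00411 and an adjusted p of 0.777 in limma.

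C1qa measured 7.38, 7.12, 7.20 and 7.30 log2 with rilpivirine and 7.67, 7.42, 7.60 and 7.64 in controls. The groups did not overlap here either, although rilpivirine replicate 1 came within 0.1 log2 of control replicate 2. The difference was -0.33 ± 0.11 log2 (SE), with an unadjusted p of 0.0141 and an adjusted p of 0.855 in limma. C1qc measured 6.82, 6.49, 6.89 and 6.74 log2 with rilpivirine and 7.09, 6.67, 7.03 and 7.03 in controls. In C1qc the groups overlapped, since control replicate 2 lay under 3 of the 4 rilpivirine samples. Its difference was -0.22 log2 (95% confidence interval -0.53 to 0.08). Its value depended on single samples: it was -0.32 without control replicate 2 (unadjusted limma p of 0.0378) and -0.14 without rilpivirine replicate 2 (unadjusted limma p of 0.306). The 3 genes lie side by side on the chromosome with 0 protein-coding genes between them, and in both groups replicate 2 held the lowest value of every chain.

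Control replicate 2 was the lowest control in 18 of the 29 members, among them the hepatocyte-made Hc, C8a, C8b, C9 and Serping1. Control replicates 1, 3 and 4 were lowest in 7, 1 and 3. Both macrophage-made and hepatocyte-made members are among the 18. The same count was not made over all genes, so it is not read as a trait of the members.

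Markers of macrophages are given beside C1q. Of 12 Kupffer cell markers 11 were tested, 10 were lower and 1 higher, 0 had an unadjusted p under 0.05, and the median difference was -0.13 log2. Clec4f differed by -0.13 ± 0.18, Adgre1, a surface receptor of mature macrophages, by -0.12 ± 0.14, and Cd68 by -0.15 ± 0.12 log2 (SE). Vsig4, the complement receptor of the immunoglobulin family on Kupffer cells, differed by -0.01 ± 0.25 (SE). As a mean deviation from the 8-array mean, the Kupffer markers spanned -0.36 to 0.20 log2 in the rilpivirine samples and -0.06 to 0.22 in the controls, so the groups overlapped. C1q minus Kupffer markers, taken within each sample, was -0.07, -0.24, -0.33 and 0.20 log2 with rilpivirine and 0.40, -0.02, 0.01 and 0.04 in controls. Rilpivirine replicate 4 had the lowest Kupffer value of the 8 but not the lowest C1q value, and the groups overlapped. A further list, which held monocyte and neutrophil genes and the macrophage genes Trem2, Gpnmb and Ms4a7, had a median difference of -0.25 log2. Of its 11 genes tested 8 were lower and 3 higher, the 3 being the neutrophil genes Ngp, Mpo and Elane. Ms4a7 and Trem2 were lower at an unadjusted p under 0.05, and 0 genes of the list without rilpivirine replicate 2. The part of macrophage number in the C1q values was not tested.

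**Figure D2:**
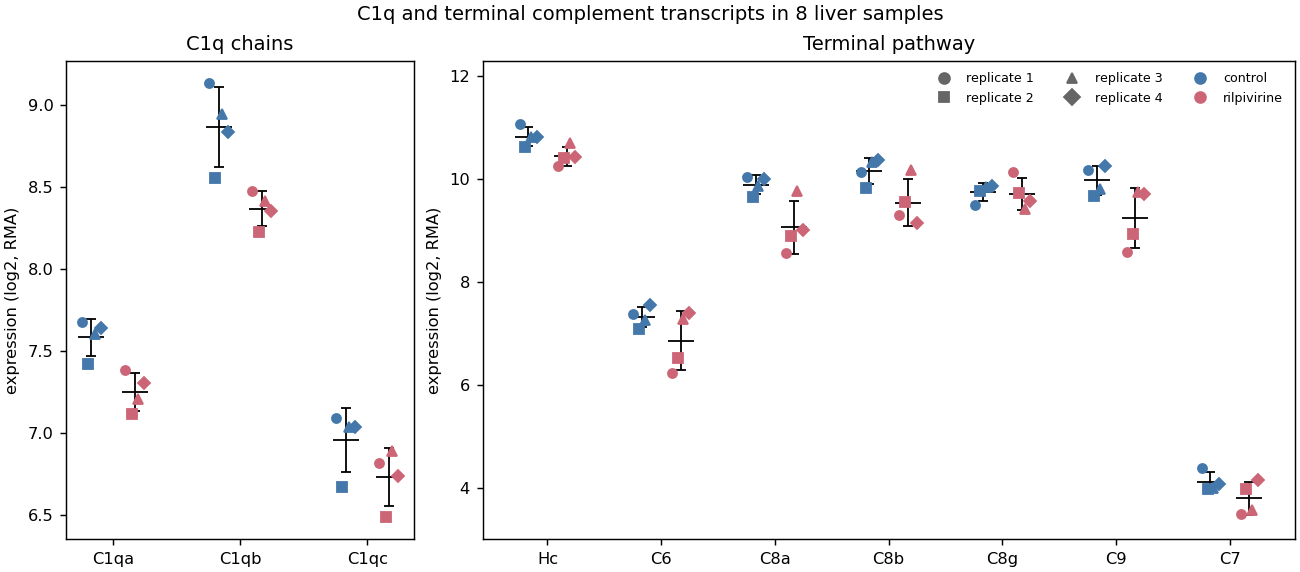
Expression in log2 of the 3 C1q chains (left) and the 7 terminal pathway genes (right) in each of the 8 liver samples, with a symbol per replicate number; black lines are group means ± SD of 4 samples. C1qa and C1qb do not overlap between groups, while in Hc, C8a, C8b and C9 rilpivirine replicate 3 reaches into the control range.

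The terminal pathway held the largest differences of the hepatocyte-made components. All 7 of its genes were lower with rilpivirine, with a median difference of -0.46 log2, and 4 of them had an unadjusted p under 0.05. C8a, which encodes the alpha chain of C8, measured 8.56, 8.90, 9.77 and 9.02 log2 with rilpivirine and 10.05, 9.65, 9.88 and 10.01 in controls. Rilpivirine replicate 3 lay inside the control range and the other 3 below it. The difference was -0.83 ± 0.22 log2 (SE), a 1.78-fold lower level, with an unadjusted p of 0.00339 and an adjusted p of 0.777 in limma.

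C8b, the gene of the C8 beta chain, lies next to C8a with 0 protein-coding genes between them. It measured 9.30, 9.55, 10.19 and 9.14 log2 with rilpivirine and 10.13, 9.83, 10.33 and 10.37 in controls. Replicate 3 again was the rilpivirine sample inside the control range. The difference was -0.62 ± 0.22 log2 (SE), with an unadjusted p of 0.0158. C8g encodes the gamma chain of C8, a lipocalin, and maps to another chromosome. It measured 10.14, 9.73, 9.41 and 9.58 log2 with rilpivirine and 9.49, 9.78, 9.84 and 9.87 in controls, with groups that overlapped widely. The difference was -0.03 log2 (95% confidence interval -0.39 to 0.33). Rilpivirine replicate 1, the lowest of the 8 for C8a, was the highest of the 8 for C8g. Whether the C8 chains differ from each other in response was not tested.

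C9, which polymerises into the wall of the pore, measured 8.58, 8.94, 9.75 and 9.71 log2 with rilpivirine and 10.19, 9.67, 9.81 and 10.25 in controls. Rilpivirine replicates 1 and 2 lay below all controls, and replicates 3 and 4 lay just above the lowest control. The difference was -0.73 ± 0.26 log2 (SE), a 1.66-fold lower level, with an unadjusted p of 0.0160. C6 measured 6.23, 6.53, 7.28 and 7.40 log2 with rilpivirine and 7.37, 7.10, 7.27 and 7.56 in controls. The same split of rilpivirine replicates 1 and 2 against 3 and 4 appeared, and the difference of -0.46 log2 had a confidence interval of -1.001 to 0.07. Without rilpivirine replicate 1 it was -0.25 (unadjusted limma p of 0.262). Without rilpivirine replicate 3 it was -0.60 (limma p of 0.0369), and without replicate 4 of that group -0.65 (limma p of 0.0171).

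Hc, which encodes C5 in the mouse, measured 10.25, 10.41, 10.70 and 10.43 log2 with rilpivirine and 11.07, 10.62, 10.82 and 10.82 in controls. Only rilpivirine replicate 3 exceeded the lowest control. The difference was -0.38 ± 0.14 log2 (SE), with an unadjusted p of 0.0175, and it became 0.0577 without control replicate 1 and 0.0536 without rilpivirine replicate 1 (differences of -0.31 and -0.32). C7, which is mainly made outside hepatocytes and is dim here, measured 3.49, 3.97, 3.56 and 4.15 log2 with rilpivirine and 4.39, 3.97, 3.997 and 4.08 in controls. Its values overlapped, and its difference was -0.32 log2 (95% confidence interval -0.69 to 0.06), or -0.43 without rilpivirine replicate 4 (unadjusted limma p of 0.0216). C6, C7 and C9 lie on the same chromosome, C6 and C7 with 1 protein-coding gene between them and C7 and C9 with 6.

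The hepatocyte-made members outside the terminal pathway are early components and soluble inhibitors. As a set they stood nearer to the level of the controls, but the soluble inhibitors did not share this. All 3 soluble inhibitors were lower, with a median difference of -0.26 log2. Of these 11 members 8 were lower and 3 higher, the median difference was -0.06 log2, and 1, the inhibitor Serping1, had an unadjusted p under 0.05. The mean deviation of the 6 hepatocyte-made terminal components was -0.56, -0.39, 0.11 and -0.19 log2 in the rilpivirine samples and 0.32, 0.04, 0.26 and 0.41 in the controls. For the other 11 it was 0.02, -0.13, -0.02 and -0.11 with rilpivirine and 0.08, -0.02, 0.14 and 0.04 in controls. In the terminal set rilpivirine replicate 3 was the one that reached above a control, and in the other set rilpivirine replicates 1 and 3 lay above control replicate 2. Apoa1, an apolipoprotein of hepatocytes, differed by 0.01 ± 0.11 log2 (SE). Hepatocyte markers, 14 tested, had a median difference of -0.02 log2, with 8 lower and 6 higher, and 1 of them, the gluconeogenic enzyme gene Pck1, lower at an unadjusted p under 0.05, and 0 without rilpivirine replicate 2. These markers are brighter than the terminal components, with a median level of 11.97 log2 against 9.67 for the 6 hepatocyte-made ones, so the sets are not matched in level.

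In the classical pathway, C4b, whose protein is cleaved to bind covalently to targets, measured 10.50, 10.35, 10.07 and 10.17 log2 with rilpivirine and 10.54, 10.54, 10.56 and 10.37 in controls. The 3 rilpivirine samples other than replicate 1 lay under the lowest control. The difference was -0.23 log2 (95% confidence interval -0.50 to 0.04), and -0.31 without rilpivirine replicate 1 (unadjusted limma p of 0.0352). C2, the protease that joins C4 in the convertase, differed by -0.04 log2, and the C1 proteases C1ra and C1s1 by 0.02 and 0.05. The second, also dim, probe set of C1s1 gave -0.14. C1s1 was near the filter value of 2.72 log2, at a mean of 3.41 with rilpivirine and 3.36 in controls.

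In the lectin pathway 6 members were tested, 4 were lower and 2 higher, and 0 had an unadjusted p under 0.05. Masp1, a protease of the lectin complexes, measured 9.16, 9.22, 9.13 and 8.94 log2 with rilpivirine and 9.07, 9.11, 9.38 and 9.16 in controls, and the groups overlapped. Mbl2, a mannose-binding lectin, measured 9.38, 8.97, 9.68 and 9.65 log2 with rilpivirine and 9.88, 9.41, 9.71 and 9.63 in controls. Replicate 2 was the lowest sample of each group, and the difference was -0.24 log2 with all samples and -0.091 without rilpivirine replicate 2 (unadjusted limma p of 0.534). Mbl1, the other mannose-binding lectin, differed by 0.07 log2, and the collectins Colec10 and Colec11 by -0.16 and -0.09. Fcna, a ficolin of macrophages, measured 7.73, 7.49, 7.54 and 7.02 log2 with rilpivirine and 7.16, 7.57, 7.52 and 7.40 in controls. Its difference was 0.03 log2 (95% confidence interval -0.33 to 0.39), and rilpivirine replicates 1 and 4 held the highest and the lowest of the 8 values.

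The alternative pathway gave the narrowest interval among the members. Cfb, which encodes factor B, measured 10.90, 10.74, 10.71 and 10.83 log2 with rilpivirine and 10.86, 10.75, 10.85 and 10.74 in controls. The difference was -0.01 log2 (95% confidence interval -0.24 to 0.22). Cfb and C2 are neighbours with 0 protein-coding genes between them, and C4b lies 5 protein-coding genes from Cfb. Cfp, which encodes properdin, a stabiliser of the alternative convertase released by myeloid cells, measured 7.42, 7.32, 7.27 and 6.50 log2 with rilpivirine and 6.99, 7.08, 7.45 and 7.59 in controls. Rilpivirine replicate 4 was the lowest of the 8; the difference was -0.15 log2 with all samples and 0.06 without that sample.

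The 5 inhibitors, soluble and on membranes, had differences of -0.37 to -0.26 log2, and 1 of them had an unadjusted p under 0.05. Serping1, which encodes the C1 inhibitor, measured 11.002, 10.98, 10.88 and 10.78 log2 with rilpivirine and 11.18, 11.06, 11.26 and 11.19 in controls. All rilpivirine values lay below all control values. The difference was -0.26 ± 0.11 log2 (SE), with an unadjusted p of 0.0352 and an adjusted p of 0.890 in limma. The unadjusted p was 0.0641, 0.0935 and 0.0725 without control replicates 1, 3 and 4, and 0.0675 and 0.0899 without rilpivirine replicates 3 and 4, where the difference stayed between -0.26 and -0.22. A further quantile normalization gave 0.0589.

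Cfi, the protease that degrades C3b and C4b, differed by -0.26 log2 (95% confidence interval -0.57 to 0.04), and C4bp, its cofactor for C4b, by -0.32 (-0.71 to 0.07). Cfi was -0.37 without control replicate 2 and -0.34 without rilpivirine replicate 3, with unadjusted limma p of 0.0197 and 0.0398. C4bp was -0.17 without rilpivirine replicate 2 and -0.45 without rilpivirine replicate 3, with unadjusted limma p of 0.289 and 0.0271. Of the membrane inhibitors, Cd59a, which blocks assembly of the pore, measured 8.42, 7.33, 8.85 and 8.41 log2 with rilpivirine and 8.44, 8.16, 8.81 and 8.98 in controls. Rilpivirine replicate 2 lay more than 1 log2 below the rest of its group. The difference was -0.35 log2 (95% confidence interval -0.99 to 0.30), and -0.038 without that sample (unadjusted limma p of 0.854). It was -0.54 without rilpivirine replicate 3 and -0.22 without control replicate 4. Cd55, the decay-accelerating factor, differed by -0.37 log2 (95% confidence interval -0.87 to 0.13) and has 1 protein-coding gene between it and C4bp. Leaving out rilpivirine replicate 2 gave -0.21 and leaving out control replicate 1 gave -0.23, whereas omitting control replicate 2 gave -0.54 (unadjusted limma p of 0.0278).

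The receptors of the anaphylatoxins, the small fragments released from C3 and C5, are carried by myeloid cells. C5ar1 was dim and measured 3.23, 3.77, 3.43 and 3.69 log2 with rilpivirine and 3.86, 3.97, 3.98 and 3.90 in controls. The groups did not overlap, and the controls spread by an SD of 0.06 against 0.25. The difference was -0.40 ± 0.14 log2 (SE), with an unadjusted p of 0.0135 and an adjusted p of 0.855 in limma. C3ar1 measured 5.48, 5.42, 5.60 and 5.76 log2 with rilpivirine and 6.01, 5.63, 5.57 and 5.91 in controls, with a difference of -0.22 log2 (95% confidence interval -0.52 to 0.09), or -0.14 without control replicate 1. Across all members, 4 of 29 had rilpivirine values wholly below the controls and 0 wholly above, and 1.73% of all genes lay wholly below. Without rilpivirine replicate 2 the count was again 4, against 2.68% of all genes. In the full set these were C1qa, C1qb, Serping1 and C5ar1.

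The contrast of macrophage-made C1q with the hepatocyte-made components gave little separation. The mean deviation of the C1q chains was -0.07, -0.35, -0.13 and -0.16 log2 with rilpivirine and 0.34, -0.08, 0.23 and 0.21 in controls. That of the 17 hepatocyte-made components was -0.18, -0.22, 0.03 and -0.14 with rilpivirine and 0.16, 0.002, 0.18 and 0.17 in controls. In both sets control replicate 2 was the lowest control. C1q minus hepatocyte-made components, within each sample, was 0.11, -0.13, -0.16 and -0.02 log2 with rilpivirine and 0.18, -0.08, 0.05 and 0.04 in controls. These ranges overlapped, and the group means were -0.05 ± 0.12 and 0.05 ± 0.11 (SD, n = 4 each), a difference of -0.10 log2 that is smaller than the spread within either group. The median differences were -0.33 log2 for the C1q chains, -0.24 for the hepatocyte-made components and -0.22 for the 9 members of other cells. The last group includes macrophage and other myeloid genes, among them Fcna at 0.03 log2 and C5ar1 at -0.40. No p is given for these scores, since the members were chosen with earlier results known.

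**Figure D3:**
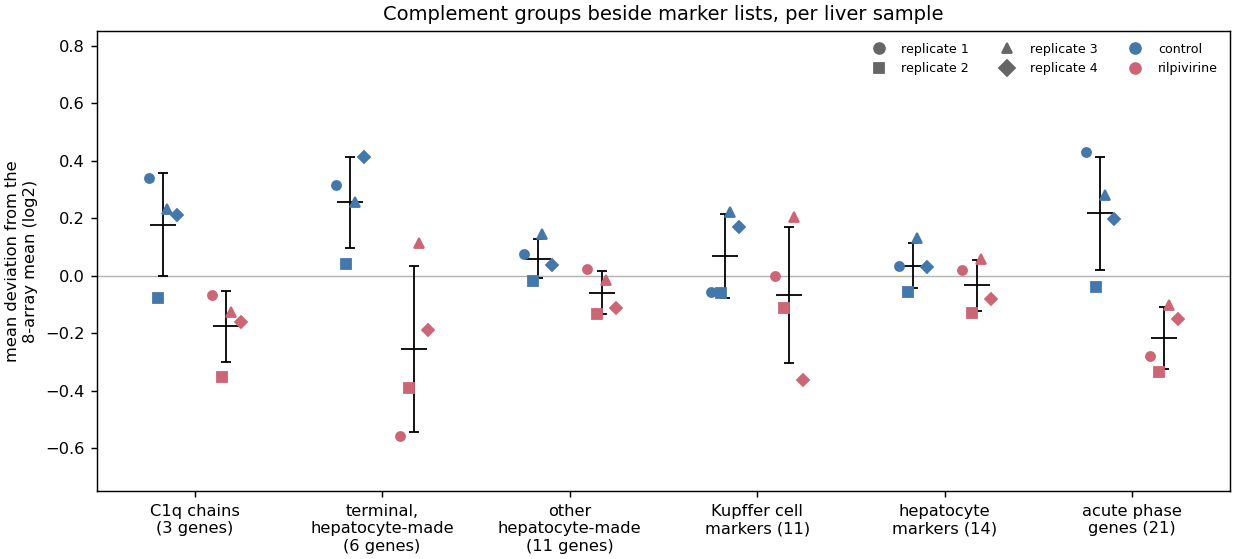
Mean deviation in log2 of each gene set from its mean over the 8 arrays, by sample (symbols), with group mean ± SD of 4 samples in black. The 6 hepatocyte-made terminal components span -0.56 to 0.11 in the rilpivirine samples and 0.04 to 0.41 in the controls, the acute phase genes do not overlap, and the Kupffer and hepatocyte markers overlap.

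The acute phase genes that are not complement moved beside the members. Of 21 tested, 19 were lower and 2 higher, with a median difference of -0.30 log2. At an unadjusted limma p under 0.05, 9 were lower and 0 higher, against 7 and 0 without rilpivirine replicate 2. Of all genes 3.21% were lower at that threshold, and 2.48% without that sample. The list was chosen with earlier results of these data known, so its counts are a description. Their mean deviation was -0.28, -0.33, -0.10 and -0.15 log2 in the rilpivirine samples and 0.43, -0.04, 0.28 and 0.20 in the controls, so the groups did not overlap. In this set and in C1q rilpivirine replicate 2 was lowest and control replicate 1 highest. Rilpivirine replicate 2, the array that stood apart, was also lowest in the hepatocyte-made components (-0.22) and the hepatocyte markers (-0.13). In the Kupffer cell markers rilpivirine replicate 4 was lowest. The genes named from this list are those with its smallest unadjusted limma p. They were Lcn2, Lrg1 and Orm3, with differences of -1.16, -0.66 and -1.19 log2, and Orm1 with -0.45. Other genes of the list lay near 0, such as Fga, Fgb and Fgg at -0.09, -0.11 and -0.06 and Cp at 0.01. The part of the acute phase response in the complement values was not tested.

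Of 22 other genes of the complement system 19 were tested, 13 were lower and 6 higher, 0 had an unadjusted p under 0.05, and the median difference was -0.05 log2. They comprise paralogues, receptors, adhesion receptors for C3 fragments and plasma inactivators. The receptor chain Itgam differed by -0.27 ± 0.18 and Cd59b, the paralogue of Cd59a, by -0.28 ± 0.20 log2 (SE). The inhibitors of the terminal complex Clu and Vtn differed by -0.15 ± 0.12 and 0.001 ± 0.11, and Cpn1, a chain of the carboxypeptidase that inactivates anaphylatoxins, by 0.05 ± 0.11 log2 (SE).

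The 8 members lower at an unadjusted p under 0.05 kept their direction in each of the 16 alternatives in which they were tested. C1qa, C1qb, C8a, C8b, C9 and C5ar1 stayed under that p in each alternative in which they were tested; C5ar1 was too dim for the filter at 3.91 log2. The smallest differences, each with a sample left out, were -0.66 for C8a, -0.48 for C8b and -0.51 for C9. Between 6 and 11 members were lower at that p with a sample left out, and 0 were higher.

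**Figure D4:**
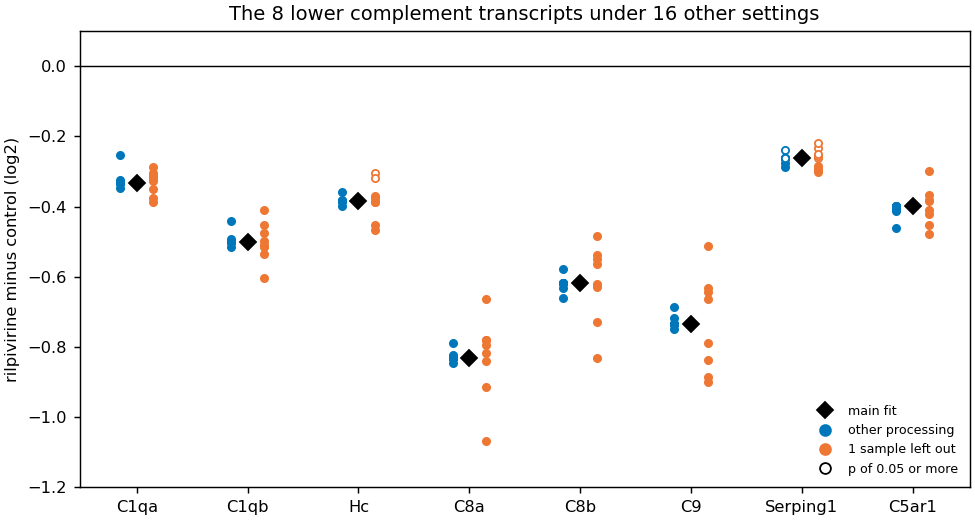
Difference in log2 of the 8 complement genes with an unadjusted p under 0.05 (diamonds) and under 16 other settings (circles, other processing in blue and a sample left out in orange); open symbols have a p of 0.05 or more. Every value lies below 0, and open symbols occur for Hc and Serping1.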

How the data were processed

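Liver RNA of 8 samples was labelled with a whole-transcript kit per the labels' protocols, and measured on Affymetrix arrays. The authors deposited log2 values for 41345 probe sets, made with RMA (background correction, quantile normalization across arrays, summary per probe set) per the submitters' processing notes, which also name limma; neither version nor genome build is given in the sources used here. RMA removes differences in total signal, so shifts in overall mRNA content are not visible. The lowest value was 0.70 and the highest 13.4.

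Probe sets were named by the platform annotation: 23521 had 1 symbol, 1814 several and 16010 none listed. Only the first were used, the brightest per symbol, giving 22180 genes; the 25% with the lowest means (under 2.72 log2) were left out, and 16635 were tested. lmFit and eBayes of limma 3.58.1 (R 4.3.3) compared the groups, two-sided, without covariates, with Benjamini-Hochberg adjustment. The scripts were tested on simulated data. The number of arrays, 4 per group, limits the precision. Replicate numbers were not treated as pairs.

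The members, gene lists and motifs were chosen with earlier results of these data known. All members are named; values in every sample are given for the C1q chains, members with an unadjusted p under 0.05 or groups that do not overlap, and the brightest of each role group; the values of C6, C8g and Masp1 and the group means of C1s1 were added after they were seen, as were Itgam, Cd59b, Clu, Vtn and Cpn1. Per-sample scores are means of values centred on each gene's mean over the 8 arrays. The alternatives were other moderation, array weights, median centring, quantile normalization, other filters, the mean of all probe sets, the replicate number as a block and each sample left out. Figures were drawn with matplotlib 3.10.9.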

Additional observations from a re-analysis of the deposited data

Results flagged for a closer look

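In 64 groups of 4 values (both groups of each member and of 3 scores) 4 samples lay far from the rest of their group, judged by the gap to the nearest value as a share of the range (Dixon); chance gives this in about 5% of groups. Control replicate 2 measured 6.67 log2 for C1qc, below the other controls, and had the lowest control value of the hepatocyte-made components, a mean deviation of 0.0019 log2. Control replicate 4 measured 10.37 log2 for C4b, and rilpivirine replicate 4 measured 6.50 for Cfp, the lowest of their groups.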

How the results depend on the processing

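The count of 8 members lower at an unadjusted p under 0.05 was 7 to 10 under other processing and 6 to 11 with a sample left out, and 0 members passed after adjustment in any setting. The C1q median stayed between -0.39 and -0.25 log2, the hepatocyte-made median between -0.30 and -0.17, and C1q minus hepatocyte-made components between -0.15 and -0.05. Genes at an unadjusted p under 0.05 numbered 867, and 1524 without rilpivirine replicate 4. With the replicate number as a block 10 members were lower, 7 of them among the 8, and Serping1 no longer passed. Same-numbered samples 1 to 4 correlated at -0.25, 0.46, -0.09 and 0.07 in their deviations from the group means. Of the 4 numbers, only replicate 2 matched its own number best. These 4 values are too few to decide whether same-numbered samples share more than a number. The samples had near-equal array medians, and dim probe sets such as C1s1, C7 and C5ar1 lie close to the filter value.

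The direction changed in 8 members, none with a main difference over 0.15 log2. C1ra became -0.035 with array weights, C1s1 -0.046 as the mean of its probe sets, and C2 and Cfb 0.037 and 0.0016 after a further quantile normalization. With a sample left out the ranges were -0.052 to 0.094 for C1ra, -0.11 to 0.22 for C1s1, -0.16 to 0.053 for C2, -0.10 to 0.0050 for Masp1, -0.064 to 0.17 for Fcna, -0.042 to 0.020 for Cfb, -0.24 to 0.060 for Cfp and -0.17 to 0.067 for C8g. The cause was not tested.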

Other observations

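Adipocyte markers set rilpivirine replicate 4 apart. Retn, which encodes resistin, measured 5.38 log2 there and 2.96 to 3.32 in the other 7 samples, and Cidec, a lipid droplet protein that fatty hepatocytes also express, 7.85 against 5.01 to 6.49. The adipocyte-secreted Adipoq and Lep were dim in every sample, at 2.34 to 2.85 and 2.60 to 3.12 log2. The same sample had the lowest Cfp value and the lowest mean of the Kupffer markers of the 8. This did not hold for every marker: Cd68 measured 7.44 log2 there, the highest value of the rilpivirine group.

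Sinusoidal endothelial markers lay the other way from complement: 9 of 10 were higher with rilpivirine, with a median of 0.25 log2, and Kdr, Stab2 and Oit3 had an unadjusted p under 0.05, against 0 genes of the list without rilpivirine replicate 2. Of all genes 5.21% passed that threshold in either direction, 3.21% being lower, and 56.9% had a difference below 0. For the 10 stellate cell markers the median difference was -0.11 log2, and 7 differences were negative and 3 positive. Cygb, at -0.33, lay below the controls in all 4 samples, as did 1.73% of all genes. Ngfr and Reln went the other way, at 0.30 and 0.20 log2.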
